A study of Mus musculus with 2 samples.

Results

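NK cells without Ifng are natural killer cells of the mouse spleen in which no transcript of Ifng, the gene for interferon gamma, was counted after a short restimulation that makes many NK and T cells transcribe it. They were 1247 of 16325 cells that passed a filter (no fewer than 200 genes, no more than 10% of UMIs mitochondrial), and of 16829 cell barcodes in all. A UMI is a unique molecular identifier, which marks 1 captured transcript. The cells were chosen by measured counts. A cell was taken when its Ncr1 and Klre1 UMIs summed to at least 2, when Cd3d, Cd3e, Cd3g, Cd79a, Ms4a1 and Lyz2 were all at 0, and when Ifng was at 0. The requirement on Ncr1 and Klre1 left 5319 cells, the absence of the CD3 genes 4794, that of the B cell genes 4466 and that of Lyz2 4319, of which 28.9% (exact binomial 95% interval 27.5 to 30.2%) had no Ifng UMI. The other 3072 gated cells, with at least 1 Ifng UMI, are called NK cells with Ifng. These values chose the cells, so the levels of the 9 rule genes are given as descriptions and support nothing.

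The study tested desensitization by delivery of allergen to dendritic cell subsets, and the single-cell data addressed which splenic cells make interleukin 10. Wild-type C57BL/6 mice, 8 weeks old, were all sensitized to ovalbumin (OVA) on days 0 and 10 and then formed 3 conditions. One condition stayed untreated, the Standard therapy condition received OVA in PBS on days 20, 22 and 24 and OVA in Alum on days 40 and 60, and the DCIR2-Fp condition received an OVA fusion protein against the dendritic cell receptor DCIR2 on days 20, 22 and 24. On day 80 the mice were challenged with OVA, per the study's methods, and splenocytes of every condition were restimulated for 3 h with PMA and ionomycin, sorted for CD45 and by CD11b, with the CD11b- and CD11b+ sorts recombined in equal parts, frozen, labelled with hashtag antibodies and loaded as a single multiplexed 10x Genomics 3′ library. Which hashtag marks which condition is not in the labels, nor is the number of mice, so all hashtags were pooled and the 3 conditions were not compared. The pool is 1 sample: there are no replicates, no test was possible, and the intervals given are exact 95% intervals that cover counting error only. CD11b, the product of Itgam, was a sorting marker, and NK cells carry it to different degrees, so the shares of cells by Itgam level depend on the sort.

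The NK cells without Ifng held 7166013 UMIs, with a median of 5126 UMIs (range 679 to 33036) and 2047 genes per cell. The NK cells with Ifng had a median of 5803 UMIs and 21663294 in all. Levels are CPM, the UMIs of a gene summed over a group and scaled to a group total of 1000000 UMIs, on which 3 UMIs stand for 0.419 CPM in the NK cells without Ifng. A deeper cell more easily shows an Ifng UMI, and the share of gated NK cells without one was 37.0% in the shallowest of 4 equal parts of the cells (median 3605.5 UMIs) and 19.4% in the deepest (median 10301.5 UMIs). Values within 4000 to 8000 UMIs per cell are therefore given where depth bears on a result. Absence of an Ifng UMI does not show that a cell made no Ifng transcript. An Ifng UMI was also found in 16.3% of B cells, which do not usually transcribe the gene, against 71.1% of the gated NK cells. Ifng stood at 171 CPM in these B cells. It stood at 15.8 CPM in those of them without a UMI of Cd3d, Cd3e, Cd3g, Ncr1, Klre1 and Lyz2. The part of free RNA and of droplets with more than 1 cell in Ifng UMIs was not tested.

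T cells (1758 cells with a summed Cd3d, Cd3e and Cd3g count of at least 2 and no Ncr1 UMI) and B cells (2809 cells with a summed Cd79a and Ms4a1 count of at least 2) served for comparison. Their median depths were 9785 and 10431 UMIs, and 142 cells met both definitions. None of the NK cells without Ifng met either. For genes that B cells lack, their level in B cells may come from free RNA and mixed droplets, which was not tested. Of the B cells, 2248 also had no UMI of Cd3d, Cd3e, Cd3g, Ncr1, Klre1 and Lyz2, and of the T cells 1295 had none of Klre1, Cd79a, Ms4a1 and Lyz2. Levels in these cells, called marker-exclusive, are given for some of the genes named below. Other genes, given below for the full groups, were also lower in these cells, such as Klrc1 (0.858 CPM in marker-exclusive B cells), Klrd1 (1.23) and Tnfrsf9 (14.8), and Klrb1b (1.09 CPM in marker-exclusive T cells). Some listed genes stayed high in marker-exclusive B cells, such as Slamf7 (460 CPM), Serpinb9 (212) and Tbx21 (203).

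NK cells are innate lymphocytes that kill infected or transformed cells without a rearranged antigen receptor. Signals from activating receptors, many of which rely on the adaptors DAP12, DAP10, FcRγ or CD3ζ, are set against those of inhibitory receptors for MHC class I, and killing proceeds through granules that hold perforin and granzymes or through death ligands. In the mouse, splenic NK cells mature from a CD27+ stage through a CD27+ CD11b+ stage to a CD11b+ stage in which CD27 is lost and KLRG1 is gained. PMA and ionomycin bypass the surface receptors and activate protein kinase C and calcium signalling directly.

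Markers that the rule did not use were those of NK cells. Gzma, which encodes granzyme A, stood at 5242 CPM (95% interval 5189 to 5295) and had a UMI in 94.9% of the cells, against 18.9% of T cells and 19.2% of B cells. When every cell was thinned to 1000 UMIs, 85.1% of the NK cells without Ifng (7 shallower cells left out) and 8.65% of B cells still held a Gzma UMI. Klrk1, Klrb1c, Prf1 and the transcription factor gene Eomes had 1143, 161, 1131 and 138 CPM, and all were at least 2-fold above T and B cells. Ncr1, a rule gene on chromosome 7 (4337724 to 4345164, GRCm38, plus strand) that encodes NKp46, stood at 386 CPM (95% interval 372 to 401), and Klre1, a rule gene in the NK gene complex of chromosome 6 (129577905 to 129585827, plus strand), at 374 CPM. Ncr1 was at 0 in T cells by their definition and at 16.9 CPM in B cells.

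Markers of other cell types were low, with some exceptions. The 15 T cell markers summed to 566 CPM, against 3045 in T cells and 294 in B cells. Their most abundant gene was Trbc1 with 278 CPM, followed by Trbc2 with 108, Cd28 with 50, Trdc with 48.3 and Icos with 45.5, while Trac stood at 19.5 CPM and Cd3d, Cd3e and Cd3g were at 0 by the rule. Transcripts of T cell receptor constant genes without the CD3 genes are known from NK cells. The 14 B cell markers summed to 808 CPM (18409 in B cells), of which Cd74 gave 350, and 2255 of its 2507 UMIs lay in 44 cells with at least 5. The 17 myeloid markers summed to 225 CPM with Cst3 at 120, and Lyz2, Xcr1 and Mcpt8 were at 0. The 8 red cell and platelet markers summed to 2.65 CPM. The part of these transcripts in the results was not tested. Scrublet, a doublet caller, marked 1336 of the 16325 cells (8.18%) and 46 of the NK cells without Ifng, and no cell was removed for it.

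Among 11197 genes with at least 50 UMIs in the NK cells without Ifng and the T cells together, 1200 (10.7%) had a CPM at least 2-fold higher in the NK cells and 1428 (12.8%) at least 2-fold lower. Against B cells 1694 of 11715 genes (14.5%) were higher and 1478 (12.6%) lower by the same measure. Against NK cells with Ifng only 35 of 10865 genes (0.322%) were at least 2-fold higher and 152 (1.4%) lower. The median log2 ratio over all genes compared was 0.08 against T cells, 0.11 against B cells and 0.07 against NK cells with Ifng, so the ratios below include shifts of that size. The shares of genes past 2-fold given here are the background for the counts of listed genes below. The ribosomal share of UMIs was 14.1% in the NK cells without Ifng, 24.5% in T cells and 22.8% in B cells (medians over cells).

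Activating receptor genes set the NK cells without Ifng apart from both lymphocyte classes and hardly from the NK cells with Ifng. Ncr1, 1 of the 18 genes listed, is a rule gene and is left out of the counts. All 17 others could be compared: 11 were at least 2-fold higher than in T cells and 4 lower, with a median ratio of 8.95, where the background over all genes was 10.7% higher and a median ratio of 1.06. Against B cells 12 were higher and 2 lower (median ratio 13.5). None was higher than in NK cells with Ifng and 1 was lower (median ratio 0.982).

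Klrk1, which encodes the stress ligand receptor NKG2D, had 1143 CPM (95% interval 1118 to 1168) in NK cells without Ifng, 1006 in NK cells with Ifng, 80.3 in T cells and 69 in B cells. The ratio to B cells was 16.6, and 166 against the marker-exclusive B cells, in which Klrk1 stood at 6.86 CPM. Klrb1c, the gene of the lectin-like antigen by which NK cells of C57BL/6 mice are commonly stained, had 161 CPM and exceeded T cells 55.8-fold and B cells 21.7-fold, and the marker-exclusive T and B cells 159-fold and 303-fold. Its activating relative Klrb1f had 83.3 CPM against 2.09 in T cells. The activating Ly49 receptor genes Klra4 (Ly49D) and Klra8 (Ly49H, which binds a cytomegalovirus protein) had 596 and 271 CPM, with 22.7 and 9.42 in T cells. Cd244a, a receptor of the SLAM family, had 295 CPM against 16.3 in T cells, and Klrc2 (NKG2C) 177 against 19.7. Crtam, which is induced on activated NK and CD8 T cells, had 591 CPM in NK cells without Ifng and 731 in those with Ifng. Each of these receptors lay within 1.5-fold of its level in the NK cells with Ifng.

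The 4 activating or co-stimulatory genes that were lower than in T cells were Cd226 (10.5 against 67.5 CPM), Cd2 (38.7 against 338), Slamf6 (2.23 against 59.1) and Cd160 (5.86 against 81.3). All encode surface proteins that T cells share with NK cells. Slamf6, with only 16 UMIs, was also the gene of the list that was lower than in NK cells with Ifng (4.85 CPM). Over the alternatives its ratio to them ran from 0.358 to 0.684, so not all kept it past 2-fold. Fcgr3, which encodes the antibody receptor CD16, had 60 UMIs or 8.37 CPM.

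Inhibitory receptor genes showed the same contrast. Without the rule gene Klre1, 18 of 20 listed could be compared with T cells, and 12 were at least 2-fold higher and 3 lower (median ratio 4.91). Against B cells 15 of 19 were higher and 1 lower (median ratio 13.1). None of 18 was past 2-fold in either direction against NK cells with Ifng (median ratio 1.17, with 1.05 over all genes). Klra9 (Ly49I) had 539 CPM, Klra7 (Ly49G) 419, Klra3 (Ly49C) 182, Klra1 (Ly49A) 115, Klra5 20.1 and Klra6 10 CPM. Ly49 genes are near-identical copies side by side on chromosome 6, so reads may be split between them and the single levels are uncertain. In the annotation, 23 of the 26 Klr genes of the file lie in the NK gene complex between 128609227 and 130386874 on that chromosome.

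Klrd1 (CD94) and Klrc1 (NKG2A), which pair as a receptor for Qa-1, had 189.5 and 178 CPM against 27.2 and 38.6 in T cells and 11 and 11.4 in B cells. Klrb1b had 202 CPM against 4.09 in T cells. Klrg1, an inhibitory receptor for cadherins that marks late maturation, had 64.1 CPM (95% interval 58.3 to 70.2) against 44.7 in NK cells with Ifng and 11.1 in T cells. Tigit had 60.4 CPM, 1.94-fold its T cell level, and Cd96 13 CPM against 16 in T cells. In NK cells with Ifng Cd96 had 6.51 CPM, a ratio of 1.99 that ranged from 1.79 to 2.5 over the alternatives. The 3 genes that were lower than in T cells, Lag3 (6.98 against 25.4 CPM), Havcr2 (17.4 against 57.6) and Pdcd1 (0.279 against 23.9, on 2 UMIs), encode checkpoint receptors of activated and exhausted T cells.

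**Figure D1:**
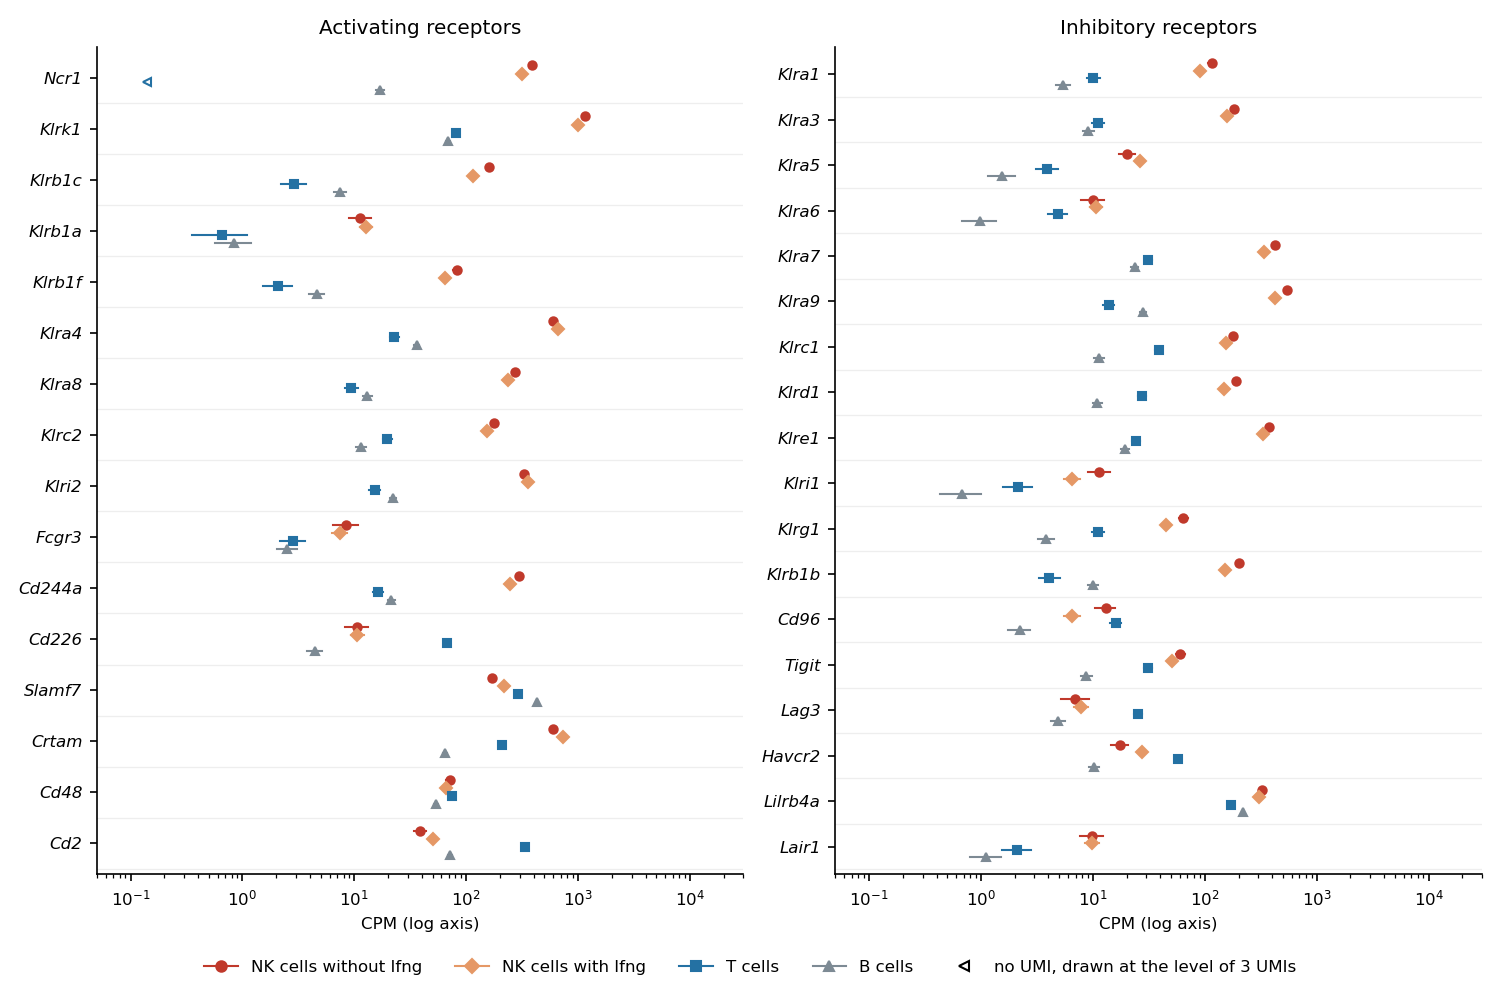
Levels of activating and inhibitory receptor genes with at least 50 UMIs in the NK cells without Ifng, as CPM on a log axis, in NK cells without Ifng, NK cells with Ifng, T cells and B cells; points are summed levels and bars exact 95% counting intervals. The 2 NK groups lie close together for most genes, while Cd96 stands at 13 CPM without and 6.51 with Ifng. Most receptors shown lie well above T and B cells, while Cd2 stands at 38.7 CPM below its T cell level of 338. Receptors under 50 UMIs are left out by this choice, among them Slamf6 and Pdcd1, which were lower than in T cells.

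Signalling adaptors and cytokine receptors followed. Of 11 adaptor genes compared, 6 were at least 2-fold higher and 1 lower than in T cells, 8 were higher and none lower than in B cells, and none passed 2-fold against NK cells with Ifng. Tyrobp (DAP12) had 669 CPM against 45.5 in T cells and 62.7 in B cells, and Fcer1g (FcRγ) 938 against 55.7 and 91.5. In the marker-exclusive T cells they stood at 15.1 and 20.3 CPM. Hcst (DAP10), which T cells also use, was at 186 CPM and close to the T cell level of 144. Of the tyrosine kinases, Syk was higher than in T cells (72.8 against 21.3 CPM) and Zap70 lower (47.7 against 151). Of 16 cytokine receptor genes, 7 were higher and 3 lower than in T cells, 7 higher and 2 lower than in B cells, and none was past 2-fold against NK cells with Ifng. The interleukin 12 receptor gene Il12rb2 had 525 CPM against 44.5 in T cells, Il18rap 513 against 55, Il18r1 138 against 43.4, and Il2rb, the shared chain of the interleukin 2 and 15 receptors, 517 against 146. Ifngr1, a chain of the interferon gamma receptor, had 426 CPM against 54.8 in T cells and 313 in NK cells with Ifng. Il7r and Il21r were below T cells (22.6 against 57.9 and 19 against 59.3 CPM).

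Cells without an Ifng UMI carried the main cytotoxic transcripts at levels near those of NK cells with Ifng. Of 26 granule and death ligand genes, 22 could be compared with T cells, of which 12 were at least 2-fold higher and 2 lower (median ratio 2.88). Against B cells 15 of 21 were higher and 1 lower (median ratio 5.93). None of 21 passed 2-fold against NK cells with Ifng (median ratio 1.05). Gzma (chromosome 13, 113093825 to 113100981, minus strand) stood at 5242 CPM, 4397 in NK cells with Ifng, 248 in T cells and 298 in B cells. Gzmb (chromosome 14, 56258838 to 56262260), whose protease triggers caspases in target cells, had 6097 CPM (95% interval 6039.9 to 6154) against 6393, 588 and 436. Prf1 (chromosome 10, 61297833 to 61304680), which encodes the pore-forming perforin, had 1131 CPM against 1078, 54.1 and 75.1. In marker-exclusive B cells the 3 genes stood at 47.7, 63.8 and 12.6 CPM, and the ratios to these B cells were 109.8, 95.5 and 89.6.

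Over the alternatives of gate, depth and hashtags left out, the ratio of NK cells without to those with Ifng lay between 1.06 and 1.26 for Gzma, 0.884 and 0.983 for Gzmb and 0.975 and 1.08 for Prf1. Within single hashtags, at both hashtag calls described below, the ratios spread wider, from 0.908 to 1.23, 0.747 to 1.07 and 0.636 to 1.13. Nkg7, a granule membrane protein gene, had 1092 CPM in NK cells without Ifng and 1175 in those with Ifng.

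The granzyme B inhibitor gene Serpinb9, which protects the killer cell from its own granules, had 805 CPM against 144 in T cells, and the cystatin gene Cst7 191 against 32.2. The granule protease gene Ctsw had 70.5 CPM against 24.5 in T cells. Srgn, the proteoglycan on which granule proteins are stored, was at a like level in all 4 groups (3934, 4057, 4465 and 3841 CPM). Ctsc, whose product activates granzymes, was also near T cells (72 against 73.8 CPM). Cma1, a mast cell chymase gene (chromosome 14, 55941451 to 55944675), had 38.2 CPM against 0.789 in T cells and 2.01 in B cells. Of the death ligands, Fasl had 122 CPM against 27.6 in T cells and Tnfsf10 11.2 against 26.8. Other granzymes were scarce: Gzmc had 77 UMIs, Gzmm 41, Gzmf 2 and Gzmk 1, and Gzmd, Gzme and Gzmg had none. Gzmk, typical of memory CD8 T cells, had 2.92 CPM in T cells.

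**Figure D2:**
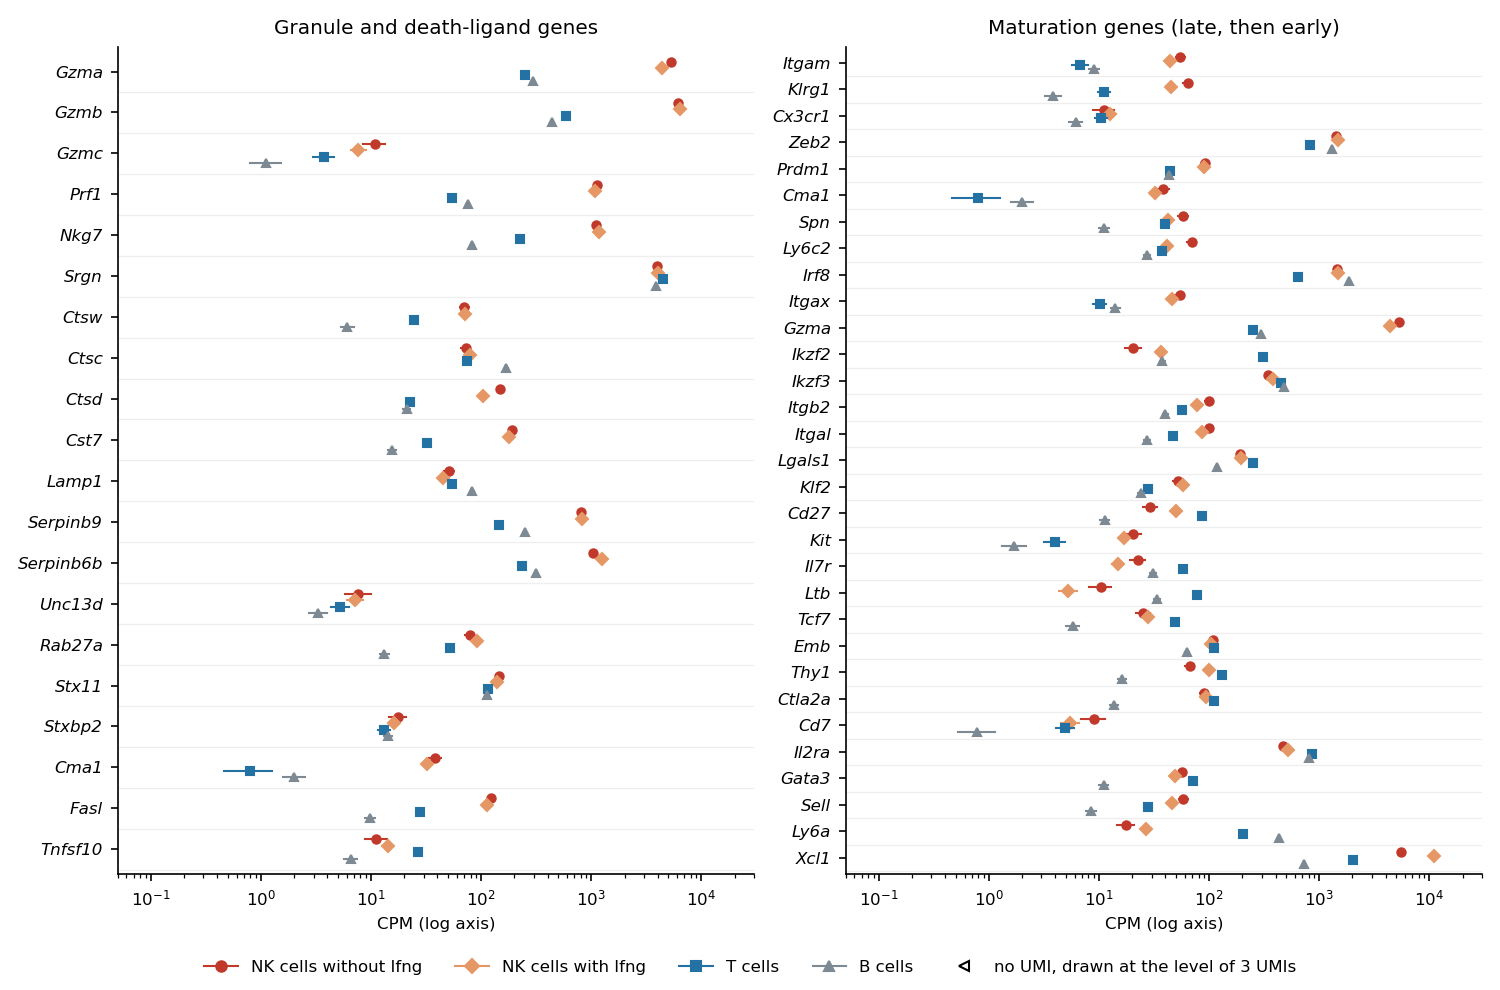
Levels of granule and death ligand genes and of genes of late and early NK cell maturation, as CPM on a log axis, in the 4 groups of cells; points are summed levels and bars exact 95% counting intervals. Gzma, Gzmb and Prf1 lie at 5242, 6097 and 1131 CPM in NK cells without Ifng and at like levels in NK cells with Ifng, far above T and B cells, while Cd27 is lower without Ifng (29 CPM) than with it (50.2).

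Genes of late NK cell maturation were mostly near or above T cells, and genes of the early stage mostly near or below them. Gzma and Cma1 count in both the granule and the late list. Of 17 late genes compared, 8 were at least 2-fold higher and 1 lower than in T cells (median ratio 1.84), against 3 higher and 7 lower of 17 early genes (median ratio 0.521). Against B cells the counts were 11 higher and none lower of 17 late genes, and 9 higher and 5 lower of 17 early genes. The median ratios to B cells were 2.47 and 2.58, so by this measure the lists differed against T cells only. Against NK cells with Ifng none of the late genes passed 2-fold (median ratio 1.14), and none of 16 early genes was higher and 1 lower (median ratio 0.994), which was Slamf6, counted above among the activating receptors. Itgam (chromosome 7, 128062640 to 128118491), which encodes CD11b, had 54.8 CPM (95% interval 49.6 to 60.5) against 43.7 in NK cells with Ifng and 6.69 in T cells. Cd27 (chromosome 6, 125232622 to 125237010) had 29 CPM (95% interval 25.2 to 33.2) against 50.2 (interval 47.3 to 53.3) in NK cells with Ifng and 85.4 in T cells. The ratio of the NK groups was 0.578 for Cd27, with 0.513 to 0.68 over the alternatives, 1.43 for Klrg1 (1.24 to 1.76) and 1.67 for Ly6c2 (1.51 to 1.96), a surface protein gene of late NK cells. Within single hashtags Cd27 lay between 0.425 and 0.671 and Klrg1 between 1.19 and 1.61, while Ly6c2 ranged from 1.07 in hashtag 9 to 3.18 in hashtag 10, both with the stricter call. Itgam ranged from 0.948 in hashtag 10 to 1.74 in hashtag 11, the latter with the stricter call. At that call hashtag 10 stood at 1.21, so its direction turned only at the other call. Other members went other ways: Ltb, an early gene like Cd27, had 10.3 CPM without and 5.26 with Ifng, a ratio of 1.96 (1.68 to 2.58 over the alternatives).

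Zeb2, a repressor required for terminal NK cell maturation, had 1431 CPM against 814 in T cells, and Prdm1 (Blimp-1) 91.1 against 43.9. Itgax (CD11c) had 53.9 CPM against 10.2. Cx3cr1 had 11 CPM, and S1pr5, the egress receptor of mature NK cells, 15 UMIs (2.09 CPM) against 1 in T cells. Ikzf2 (Helios), which regulatory T cells express, was the late gene lower than in T cells (20.2 against 305 CPM). Of the early genes, Kit, the stem cell factor receptor gene, had 20.4 CPM against 3.95 in T cells, and Tcf7 (TCF-1) 25.3 against 48.5. Cxcr3 was nearly absent with 2 UMIs, against 32.3 CPM in T cells, and Ltb had 10.3 CPM against 77.5.

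Transcription factor genes gave a mixed picture. Of 24 compared, 9 were higher and 4 lower than in T cells, 13 higher and 2 lower than in B cells, and 1 higher and none lower than in NK cells with Ifng. Over all genes 10.7% were higher and 12.8% lower than in T cells, and 14.5% and 12.6% than in B cells. The counts of lower genes were near these shares. Eomes, the T-box factor that separates NK cells from most ILC1, had 138 CPM against 31.4 in T cells and 141 in NK cells with Ifng, while the related Tbx21 (T-bet), which drives Ifng, had 71.4 CPM against 75.6 in NK cells with Ifng and 95.4 in T cells. Id2 and Nfil3, both needed for innate lymphoid development, had 598 and 96.6 CPM against 206 and 30.2 in T cells. Stat4, which transmits interleukin 12 signals to Ifng, had 753 CPM against 647 in NK cells with Ifng. Tox was far below T cells (114 against 658 CPM). Bcl11b, a T lineage factor, was the gene above NK cells with Ifng, on 45 UMIs (6.28 against 2.59 CPM). Its ratio ran from 1.92 to 4.99 over the alternatives, so not all of them kept it past 2-fold.

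Genes that mark ILC1, the tissue-resident relatives of NK cells, were at least 2-fold below T cells in 9 of 11 cases and above in none, Cd3g of the rule left out. Against B cells 1 of 11 was higher and 4 lower. Against NK cells with Ifng none of 10 passed 2-fold, but their median ratio was 1.61, with Cxcr6 at 7.95 against 4.57 CPM, Itga1 at 9.77 against 5.54 and Il7r at 22.6 against 14.8. Cxcr6 had 69.5 CPM in T cells, and Inpp4b had 47.9 CPM against 860.3 and Rora 36.7 against 140.2. Zfp683 (Hobit) had 1 UMI. Of 15 homing genes, 7 were higher and 5 lower than in T cells, 8 higher and 4 lower than in B cells, and none of 13 was past 2-fold against NK cells with Ifng. Itga2 (chromosome 13, 114833081 to 114932100), which encodes the pan-NK integrin CD49b, had 888 CPM (95% interval 866 to 909.9) against 21 in T cells, 42.7 in B cells and 5.8 in marker-exclusive B cells. Ccr7, which guides naive T cells into lymph nodes, had 20.8 CPM against 103 in T cells. Cell cycle genes summed to 35.0 CPM, against 67.8 in NK cells with Ifng, where 4 of 8 genes compared were at least 2-fold higher, and 215 in T cells. All 12 were at least 2-fold below T cells and 11 of 12 below B cells. Only 1 of the 12 had at least 50 UMIs in the NK cells without Ifng. The ratio of Mki67 to NK cells with Ifng ran from 0.201 to 0.789 over the alternatives, so not all of these were past 2-fold. Heat shock genes summed to 1592 CPM against 1764 in NK cells with Ifng and 3283 in T cells.

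The chemokine genes Ccl3, Ccl4 and Xcl1 were lower in the NK cells without Ifng than in those with Ifng. Of 14 genes of the cytokine and chemokine list compared, Ifng of the rule left out, 2 were at least 2-fold lower (Ccl3 and Ccl4) and 2 higher (Il2 and Il13), with a median ratio of 0.745. The higher values of Il2 and Il13 lay almost wholly in a single cell. Against T cells 4 of 15 were higher and 7 lower, and against B cells 7 were higher and 4 lower.

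Ccl3 and Ccl4 encode macrophage inflammatory proteins 1α and 1β and lie near each other on chromosome 11 (83647844 to 83649355, minus strand, and 83662584 to 83664683, plus strand). Ccl3 had 2046 CPM (95% interval 2013 to 2079.7) without Ifng and 7662 (interval 7625 to 7699) with Ifng, a ratio of 0.267 that ranged from 0.195 to 0.28 over the alternatives. Ccl4 had 9308 CPM against 24414, a ratio of 0.381 (0.304 to 0.396). Xcl1 (chromosome 1, 164931644 to 164935527), the gene of lymphotactin, which attracts XCR1+ dendritic cells, had 5568 CPM against 11009.9, a ratio of 0.506 (0.415 to 0.524). Within single hashtags the ratios ran from 0.215 to 0.326 for Ccl3, 0.347 to 0.455 for Ccl4 and 0.433 to 0.594 for Xcl1. The NK cells without Ifng nonetheless stood above T cells for Ccl3 (1099.6 CPM), Ccl4 (6216) and Xcl1 (2041). Ccl5, which resting NK cells already store as transcript, did not share the difference, with 10515 CPM without and 9772 with Ifng. Csf2 (GM-CSF) had 17.6 CPM against 32.6, and Ccl1, which was outside the lists and named for its ratio, 2.79 against 28.2. Tnf was low in both NK groups, with 41 UMIs (5.72 CPM) against 8.86 CPM, and at 49.1 CPM in T cells.

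Of 34 genes that respond to stimulation, 1 was at least 2-fold below the NK cells with Ifng and none above (median ratio 0.868). Over all genes 1.4% were lower and 0.322% higher (median ratio 1.05), so these counts are near the background. The lower gene was Nr4a3, a nuclear receptor gene induced by calcium signalling, with 159 CPM against 340.3, but its ratio was 0.698 within hashtag 11. Nr4a1, Nr4a2, Nfkbid and Zfp36l1 had 101, 141, 52.5 and 126 CPM against 178, 224, 100.4 and 207. Within hashtag 9 with the stricter call, however, the ratios of Nr4a1, Nr4a2 and Nfkbid were 1.16, 1.22 and 1.42. Other response genes differed less. Cd69, an early activation antigen gene, had 617 CPM against 709, Egr2 92.1 against 117, Tnfaip3 718 against 719 and Junb 544 against 593. Tnfrsf9, which encodes the co-stimulatory receptor CD137, had 1690.5 CPM against 1611 in NK cells with Ifng, 475 in T cells and 149.9 in B cells. Among the genes named here, some were thus lower in cells without an Ifng UMI and others were at like levels. Against T cells, 5 of the 34 genes were higher and 8 lower, and against B cells 8 were higher and 8 lower. Over all genes 10.7% were higher and 12.8% lower than in T cells, and 14.5% and 12.6% than in B cells.

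The promoters of genes on both sides of this contrast are shown because Ccl3 and Xcl1 were lower in the cells chosen for having no Ifng UMI and Gzma was not. Each is the 250 bases before the RefSeq start in GRCm38.p6, 5′ to 3′ on the strand of the gene, with capitals on matches to GGAAA on either strand (TTTCC on the other), letters found in sites of the calcium-activated factor NFAT. Ifng lies at chr10:118440796-118441045 (plus strand), Ccl3 at chr11:83649379-83649628 (minus), Xcl1 at chr1:164935523-164935772 (minus) and Gzma at chr13:113100982-113101231 (minus).
Ifng: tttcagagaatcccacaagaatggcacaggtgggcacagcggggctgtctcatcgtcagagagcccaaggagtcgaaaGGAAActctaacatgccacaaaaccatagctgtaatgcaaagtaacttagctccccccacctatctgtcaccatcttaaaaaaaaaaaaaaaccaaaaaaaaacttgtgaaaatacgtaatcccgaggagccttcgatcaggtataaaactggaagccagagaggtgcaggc
Ccl3: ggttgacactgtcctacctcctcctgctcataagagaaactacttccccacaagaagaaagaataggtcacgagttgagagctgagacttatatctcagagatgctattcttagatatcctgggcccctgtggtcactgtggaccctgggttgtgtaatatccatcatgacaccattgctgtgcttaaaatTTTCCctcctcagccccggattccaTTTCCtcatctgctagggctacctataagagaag
Xcl1: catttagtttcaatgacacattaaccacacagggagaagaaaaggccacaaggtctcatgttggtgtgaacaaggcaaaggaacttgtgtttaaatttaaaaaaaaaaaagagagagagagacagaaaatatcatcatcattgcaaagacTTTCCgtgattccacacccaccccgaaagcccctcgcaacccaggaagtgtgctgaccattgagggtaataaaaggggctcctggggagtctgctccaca
Gzma: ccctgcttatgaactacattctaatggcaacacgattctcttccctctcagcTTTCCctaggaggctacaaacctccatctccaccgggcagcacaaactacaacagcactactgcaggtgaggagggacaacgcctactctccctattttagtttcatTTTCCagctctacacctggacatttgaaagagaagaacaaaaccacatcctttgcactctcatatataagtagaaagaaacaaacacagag
Ifng and Xcl1 had 1 match each and Ccl3 and Gzma 2 each, and 55.6% of 32851 RefSeq promoter windows of this length held at least 1. The AP-1 letters TGANTCA were in none of the 4 windows and in 6.75% of all. The windows of Gzmb and Prf1 held no GGAAA match, and that of Gzmb held 1 TGANTCA match. Such matches are descriptions of the sequence and not sites of binding.

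Ifng was next read in steps among the gated NK cells, with 0, 1, 2 to 4, 5 to 19 and at least 20 UMIs per cell (1247, 608, 828, 1045 and 591 cells), ranges chosen after the values were seen. Ccl3 stood at 2046 CPM in cells with no Ifng UMI and then at 3177, 4203, 7289.6 and 15468. Ccl4 went from 9308 through 13669, 17445 and 24612 to 40002 CPM, and Nr4a3 from 159 through 201, 259 and 326 to 558. These genes were lower in the cells without Ifng than in NK cells with Ifng to begin with, and the order of the ranges is that of the rule, so the steps are a description. Of the granule genes, Gzma fell at each step, from 5242 through 4806, 4681 and 4351 to 3844 CPM, while Gzmb stood at 6097, 6586, 6402, 6393 and 6236 CPM and Prf1 at 1131, 1127, 1074, 1123 and 976.

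Several surface genes ran the other way. Itga2 went from 888 CPM without Ifng through 753, 664 and 599.8 to 386, Klrb1c from 161 to 62.6, Klrg1 from 64.1 to 26 and Ifngr1 from 426 to 224. Cd27 went from 29 to 67.4 CPM and Zap70 from 47.7 to 105. Trac, a T cell receptor gene, went from 19.5 to 65.8 CPM along the same ranges, and its part in these differences was not tested. The median depth of the ranges also grew, from 5126 to 6641 UMIs. Within 4000 to 8000 UMIs per cell (718 cells without Ifng, 312 with at least 20 UMIs), Ccl4 still went from 9846 to 51924 CPM, Itga2 from 968 to 411, Klrb1c from 170 to 80.7 and Cd27 from 32.2 to 70.2. Gzma, at 5242 and 3844 CPM at the ends over all cells, lay at 5720.4 and 5159.7 within the window.

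**Figure D3:**
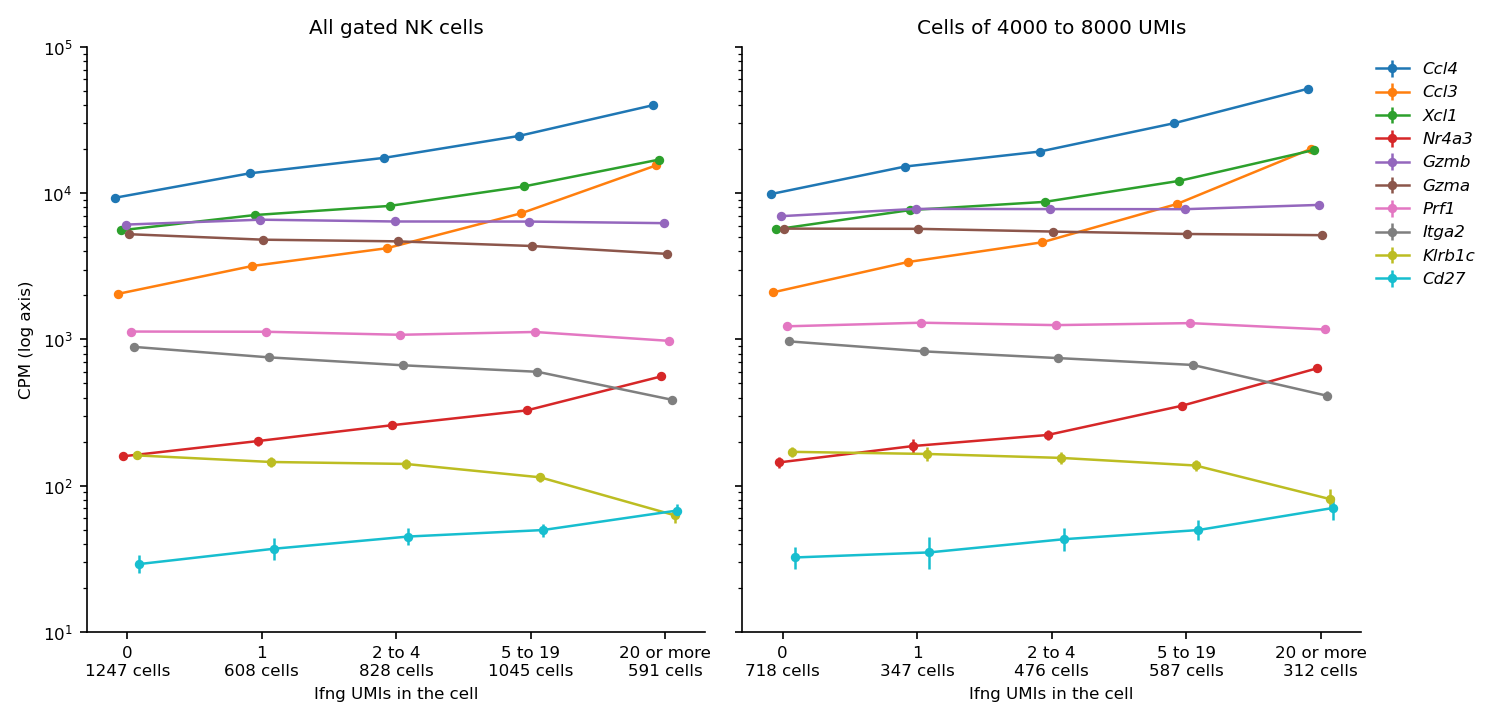
Levels of 10 genes as CPM on a log axis over 5 ranges of Ifng UMIs per cell, for all gated NK cells (left) and for cells of 4000 to 8000 UMIs (right); the cells without Ifng are the leftmost points, and bars are exact 95% counting intervals. Ccl3 climbs from 2046 to 15468 CPM on the left, Gzmb and Prf1 are nearly flat, and Itga2 and Klrb1c decline in both panels.

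The NK cells without Ifng varied among themselves, first of all with depth. In 4 equal parts of the cells by UMIs (medians 3294.5, 4483, 5829 and 8511), Gzma stood at 8026, 7399, 5479 and 3191 CPM and Gzmb at 8634, 9467, 6668 and 3353. Klrb1c stood at 335 CPM in the shallowest part and 63.1 in the deepest, and Ly6c2 at 129 and 26.5. Xcl1 differed less (6075 and 5272 CPM), and Cd27 went from 18.8 to 32.5. The rule itself asks for at least 2 Ncr1 and Klre1 UMIs, so a shallow cell had to hold a larger share of them: Ncr1 stood at 646 CPM in the shallowest part and 246 in the deepest.

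The threshold on Ncr1 and Klre1 was not a sharp border. Of cells without Ifng that passed the other steps, 367 just outside it, with a sum of 1, had Gzma at 4042, Prf1 at 876, Klrk1 at 954 and Klrb1c at 101 CPM. The 301 cells just inside, with a sum of 2, had 4420.4, 983, 994 and 138 CPM, and the 946 cells with at least 3 had 5475, 1173, 1185 and 167.

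Ly49 genes, which single NK cells are known to switch on in different combinations, were spread unevenly over the NK cells without Ifng. A cell held UMIs of a median of 3 Ly49 genes, 4.33% of the cells (54) held none, 15.5% held 1, 26.2% held 2, 29.3% held 3, 18.0% held 4, 5.69% held 5 and 0.962% held 6 or more. NK cells with Ifng were alike, with a median of 3 and 5.21% with none, and among B cells 84.3% held none. Thinned to 1000 UMIs, the NK cells without Ifng held a median of 1 and 20.9% held none, and those with Ifng a median of 1 with 23.8% at none. Klra4 was found in 33.1% of the 475 cells with a Klrc1 UMI and in 63.6% of the 772 cells without one (median depths 5476 and 4925 UMIs). Klra7 was found in 46.3% and 57.1% of them, and Klra9 in 57.7% and 57.9%. Cells with Klra4 held Klra7 in 59.0% and Klra8 in 51.2% of cases, against 46.6% and 39.7% of cells without Klra4. Klra9 ran the other way, in 54.0% of cells with and 61.9% without Klra4, and in 54.5% with and 61.6% without Klra7. By Klra8 it was nearly level (58.2% and 57.5%). Median depths were 5411 UMIs with and 4887 without Klra4. The part of depth in all these contrasts, like that of reads shared between Ly49 copies, was not tested.

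By Cd27 and Itgam, 133 of the NK cells without Ifng (10.7%, interval 9.01 to 12.5%) held UMIs of Cd27 alone, 237 (19.01%, 16.9 to 21.3%) of Itgam alone, 31 (2.49%) of both and 846 (67.8%) of neither. In NK cells with Ifng the shares were 17.9% Cd27 alone, 16.6% Itgam alone, 4.26% both and 61.2% neither, and in B cells 6.41%, 5.70%, 1.07% and 86.8%. Thinned to 1000 UMIs, Cd27 alone was 2.98% of NK cells without and 4.04% of those with Ifng, and Itgam alone 5.97% and 4.27%, against 0.676% and 0.748% of B cells. At that depth the intervals of the NK groups overlapped for both classes (Cd27 alone 2.11 to 4.09% and 3.37 to 4.795%, Itgam alone 4.71 to 7.43% and 3.58 to 5.04%).

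The cells with Itgam alone and those with Cd27 alone differed in genes that had no part in the split. Cma1 had 66.7 CPM in cells with Itgam alone and 4.33 in cells with Cd27 alone, Klrb1c 238 and 49.8, Klrg1 116 and 26, and Ly6c2 84.9 and 19.5. Gzmb had 6555 and 3130.3 CPM, Gzma 5875 and 3366, Prf1 1425 and 798, and the inhibitory receptor gene Klra9 741 and 254. On the other side, Kit had 36.8 CPM with Cd27 alone and 11.6 with Itgam alone, Tcf7 42.2 and 18.9, and the T cell receptor genes Trdc 95.3 and 34.8 and Trac 34.6 and 9.43. The part of T cell transcripts in this contrast was not tested. Ccl4 (9397 and 9188 CPM), Ccl3 (2162 and 1910), Klra4 (611 and 599.8) and Klrc1 (188 and 179.7) were nearly level. Xcl1, which stands in the early list, had 4959 CPM with Itgam alone and 6492 with Cd27 alone. Median depths were 5183 UMIs with Itgam alone and 6394 with Cd27 alone, which cannot be told apart from the classes here. Klrg1, taken on its own, split the cells likewise: of the 278 with a UMI, 35.3% held Itgam and 6.47% Cd27, against 17.5% and 15.1% of the 969 without one, at like depth (medians 5069.5 and 5158 UMIs).

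**Figure D4:**
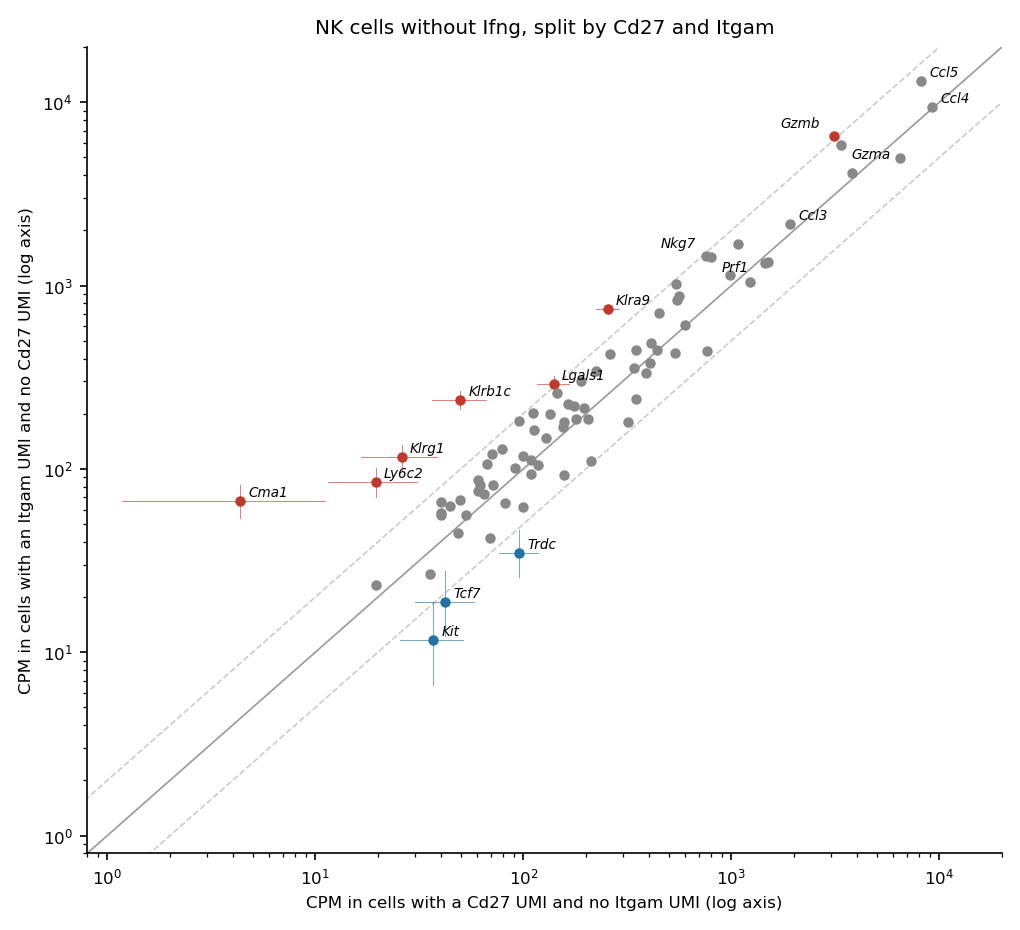
Levels of listed genes with at least 50 UMIs in both classes together, as CPM on log axes, in NK cells without Ifng that hold UMIs of Cd27 alone (horizontal, 133 cells) and of Itgam alone (vertical, 237 cells); the solid line marks equality, dashed lines 2-fold, red and blue genes past 2-fold, and bars exact 95% counting intervals. Cma1, Klrb1c, Klrg1 and Ly6c2 lie above the upper dashed line and Kit, Trdc and Tcf7 below the lower, while Ccl3 and Ccl4 lie on the diagonal.

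Hashtags 9 to 12, whose oligonucleotides are shown because they are the only link of a cell to its source in the pool, divided the cells further. The barcodes of 15 bases are given 5′ to 3′ as in the deposited feature table, in capitals throughout.
Hashtag 9: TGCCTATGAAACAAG
Hashtag 10: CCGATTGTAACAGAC
Hashtag 11: GCTTACCGAATTAAC
Hashtag 12: CTGCAAATATAACGG
Separation was weak. The median count of the own hashtag in gated NK cells was 132, 94, 23 and 59 UMIs for hashtags 9, 10, 11 and 12, against 89, 45, 7 and 17 UMIs of the same hashtags in cells called negative. Of the 4319 gated NK cells, 1373 were called doublets and 769 negative. The share without Ifng was 29.8% of 379 cells with hashtag 9 (interval 25.3 to 34.7%), 26.6% of 556 with hashtag 10 (23.0 to 30.5%), 19.2% of 655 with hashtag 11 (16.3 to 22.5%) and 41.1% of 587 with hashtag 12 (37.0 to 45.2%). Hashtag 12 stood highest and hashtag 11 lowest, and the interval of each overlapped that of no other hashtag in this call, at median depths of 5356 and 5335 UMIs. With a stricter call (positive quantile of 0.99 in place of 0.85) the shares were 27.8% (interval 21.04 to 35.3%), 26.5% (22.5 to 30.8%), 19.4% (16.5 to 22.6%) and 38.2% (34.6 to 41.9%), so that the interval of hashtag 11 overlapped those of hashtags 9 and 10, and that of hashtag 12 overlapped that of hashtag 9. What the hashtags stand for is not given, so no condition can be read from them.

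Within the cells without Ifng, hashtag 11 was high for some induced genes and low for others. Ccl3 had 1433, 1736, 3629 and 1433 CPM in hashtags 9, 10, 11 and 12, Ccl4 7439, 8530.5, 13674 and 8528, and Nr4a3 128, 75.6, 358 and 112. Nr4a1 followed with 93.2, 50, 258 and 73.8 CPM. This was not particular to these cells: in NK cells with Ifng, hashtag 11 was also highest for all of these genes. There, Ccl3 had 6666, 6745, 11814 and 6442 CPM and Nr4a3 323, 193, 513 and 294. Egr2, in contrast, had 113, 87.8, 72.5 and 88.1 CPM, Csf2 10.8, 20.0, 5.80 and 26.4, Cd69 573, 695, 497 and 614, and Tnfrsf9 1481, 2021, 1208 and 1845, each lowest in hashtag 11. In NK cells with Ifng, Csf2, Cd69 and Tnfrsf9 were also lowest in hashtag 11, while Egr2 was lowest in hashtag 12. Gzma had 3700, 5999, 4014 and 5731 CPM and Gzmb 3674, 7499, 4433 and 6904, so that hashtags 10 and 12 were the higher pair for both granzymes. The same pair was higher in NK cells with Ifng (Gzma 3365, 5431, 3673 and 4693 CPM, Gzmb 4761, 8685, 4392 and 7110). Klrk1 was nearly level at 1144, 1196, 1079 and 1219.8 CPM, and so was Ccl5 at 10339.5, 10776, 10976 and 10439. Other receptor genes ranged more widely, with Klrd1 at 196, 184, 238 and 135 CPM, Klra9 at 488, 656, 486 and 440.5, and Klrb1c at 124, 148, 181 and 133. With the stricter call, which left 45 cells without Ifng in hashtag 9, that hashtag moved by over 1.5-fold for Klrb1c (to 52.7 CPM), Klra9 (to 307) and Prf1 (from 983 to 635), among others, and was then the lowest for Klra9 and for Cd69 (539 CPM against 543 in hashtag 11). Csf2 in hashtag 11 rested on 4 UMIs. Cells of 1 hashtag come from 1 labelling and are not replicates.

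**Figure D5:**
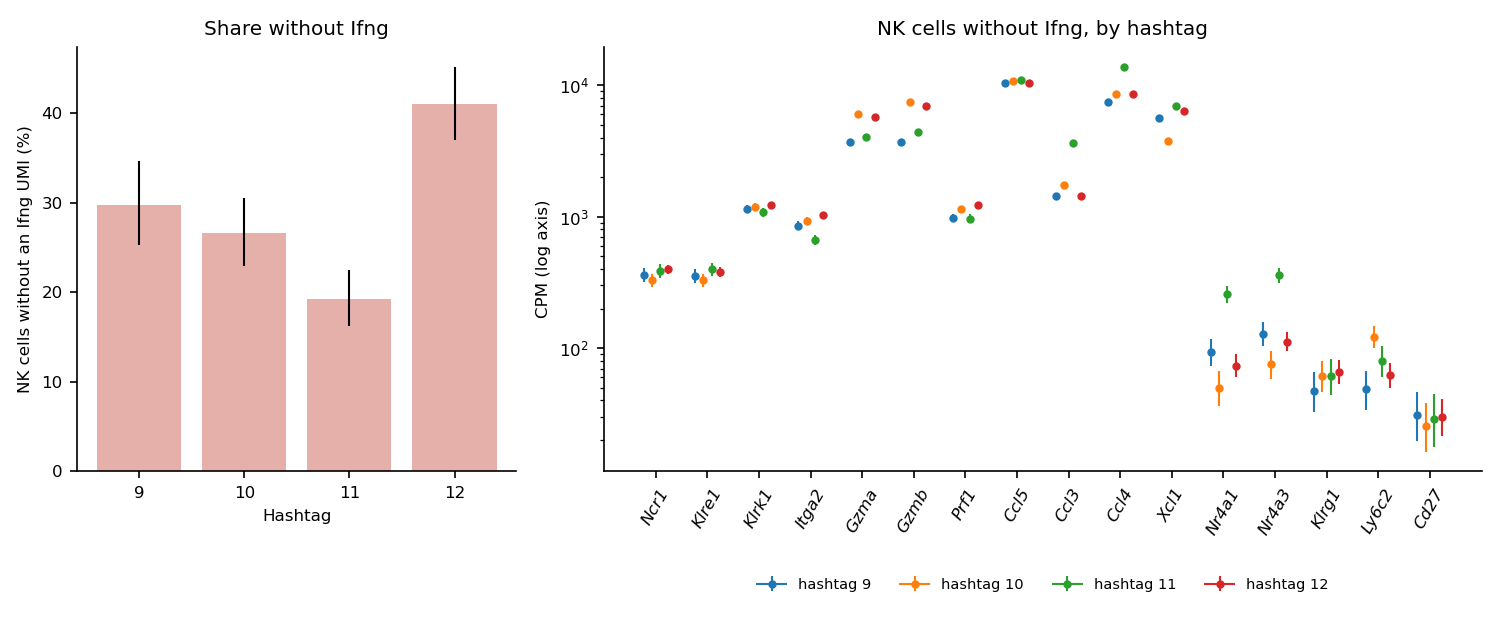
Left, share of gated NK cells without an Ifng UMI by hashtag, in percent, with exact binomial 95% intervals; right, levels of 16 genes in the NK cells without Ifng by hashtag, as CPM on a log axis with exact 95% counting intervals. Hashtag 11 has the lowest share (19.2%) and stands above the others for Ccl3, Ccl4, Nr4a1 and Nr4a3, while Klrk1 and Ccl5 are nearly level.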

How the data were processed

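The authors deposited raw UMI counts for 32285 genes and 4 hashtags in 16829 barcodes, made per the labels with Cell Ranger 7.2.0 (7.0.0 per the file headers) on GRCm38 (mm10), with FastQC and Seurat also named. The deposited counts were read as they are: 137010302 gene UMIs, with no barcode occurring more than once. Cells were filtered on genes and mitochondrial UMIs as in the study's methods, without its ribosomal filter and doublet removal. Counts were summed per group and divided by the group's total to give CPM. With 1 pool and no replicates, no p-value was computed. A gene was compared when it had at least 50 UMIs in both groups together, and a 2-fold ratio was the mark, with a floor of 3 UMIs for a group below it. Intervals are exact Poisson (CPM) and Clopper-Pearson (shares) at 95%, and PCR and free RNA are not covered. Hashtags were called with HTODemux (Seurat 5.3.0, R 4.3.3) within the gated NK cells at a positive quantile of 0.85. Other steps used Python 3.11.15, NumPy 2.4.6, SciPy 1.17.1, pandas 2.3.3 and scanpy 1.11.5 (Scrublet, expected rate 0.1), and positions were taken from GENCODE M21. The members, gene lists and comparisons were chosen with earlier results of these data known. Named genes are list genes with at least 50 UMIs or defining markers near 0, and the 10 highest and 10 lowest ratios of each comparison among genes with at least 50 UMIs in the higher group. Where other genes are named, they were chosen after their values were seen. Counts for NK cells without and with Ifng (10859 genes) were also simulated with counting error only, with some genes set 4-fold up or down. Of 197 such genes compared, 196 were found past 2-fold in the right direction, and 35 others were called. Spread between cells was not simulated, so the result checks the calculation and not how reliable the calls in the data are. The level of 1 listed gene is not reported here.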

Additional observations from a re-analysis of the deposited data

How the results depend on the processing

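No paired analysis was possible because the pool is a single sample. Of 157 recomputed counts and shares, 122 stayed within their limits, and of 1255 ratios of named genes 752 stayed within their interval, 494 moved and 9 reversed. Only a ratio past 2-fold as reported could count as reversed. Turns of direction of smaller ratios, such as those given above for Nr4a1, Nr4a2, Nfkbid and Itgam within hashtags, are not among the reversed ratios. Thinned to 1000 UMIs, cells with Itgam alone made up 5.97% and with Cd27 alone 2.98%, and the genes past 2-fold numbered 768 higher and 535 lower against T cells, 1021 and 716 against B cells, and 22 and 39 against NK cells with Ifng. The share without Ifng was not recomputed after thinning. In cells of 4000 to 8000 UMIs the lower genes numbered 624 (T cells), 849 (B cells) and 57 (NK cells with Ifng). With at least 10 UMIs, higher genes numbered 1859 (T cells) and 2587 (B cells), and 409 were higher and 393 lower against NK cells with Ifng; with at least 200 UMIs the counts were 770 and 773, 1101 and 912, and 6 and 22. At 3-fold they were 533 and 890 (T cells), 836 higher (B cells), and 3 and 55 (NK cells with Ifng). Genes higher than in NK cells with Ifng numbered 73 with a mean over cells, 70 with Ncr1 and Klre1 summing to at least 1, and 63 with cells of 1 hashtag, which left 628 cells. Against NK cells with at least 5 Ifng UMIs, 94 genes were higher and 101 lower. Hashtags were called for gated NK cells only, so T and B cells were the same in those repeats. Without hashtag 11 the share without Ifng was 30.6%, and without hashtag 12 it was 27.0%. The ratios of Il13 and Il2 to NK cells with Ifng reversed to 0.456 and 0.811 in cells of 4000 to 8000 UMIs, and those of Il5, Il13 and Il2 to 0.0573, 0.0603 and 0.110 without hashtag 9. Among all NK cells with Ifng, the richest cell held 155 of 160 Il5 UMIs, 59 of 155 Il13 UMIs and 381 of 623 Il2 UMIs. Leaving out the richest cell of each gene, an alternative chosen after seeing the data, gave 21 genes higher than in NK cells with Ifng and reversed Il13 (0.0951) and Il2 (0.302). In the NK cells without Ifng a single cell held nearly all Il13 and Il2 UMIs. Taking single hashtags alone, also chosen after seeing the data and limited to genes with at least 50 UMIs in the NK cells of that hashtag, reversed Il13 in hashtag 10 (0.195) and, with the stricter call, Il2 in hashtag 12 (0.224). For the other changes the cause was not tested. Depth limits the scarce genes: 1247 cells of median 5126 UMIs cannot separate absence from a few transcripts.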

Other observations

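Outside the lists, the genes with the highest ratio to T cells were, after Ncr1 and beside receptor genes, Khdc1a (20.5 CPM in NK cells without Ifng against 0.325 in T cells), Phactr3 (7.12 against 0.0929) and Sema6a (30.8 against 0.65), a semaphorin gene. The 10 lowest were, beside Ifng and the CD3 genes of the rule, Ighg2b, Itgb8, Nrp1, Cd8b1, Hs6st3 and Tshz2. Ighg2b ranked there through 1 T cell, which held 2642 of its 2791 UMIs, and stood at 6.92 CPM in T cells without it. Nrp1, which regulatory T cells carry, had 0.558 CPM against 109.8 in T cells. Against B cells the highest ratios were those of Khdc1b (7.54 against 0.112 CPM), Arap3 (10.7 against 0.251), Qrfp (11 against 0.363), a neuropeptide gene, Klhl4 and Gm28836, and the variable gene Trdv4 and the transporter gene Abcg2 were also among the 10. The lowest, beside the rule genes, were the immunoglobulin genes Iglc1, Iglc2, Iglc3, Ighg2b and Igkc (52.3 against 6865 CPM for Igkc), Jchain, which encodes the joining chain, and Mzb1, which encodes a chaperone of plasma cells. Against NK cells with Ifng the basophil protease gene Mcpt8 and the genes Ighg2c, Il4, Ifi202b, Nrp1, Ccl1, Slc4a4, Il22 and Hist1h3c were lowest after Ifng, with 20 UMIs for Ccl1 and at most 5 for each of the others in the NK cells without Ifng. Single cells held much of their UMIs in the NK cells with Ifng: 529 of 536 for Ighg2c, 223 of 253 for Il4, 90 of 94 for Mcpt8, 86 of 86 for Il22, 61 of 99 for Ifi202b and 50 of 89 for Slc4a4, but 25 of 123 for Nrp1, 51 of 611 for Ccl1 and 7 of 75 for Hist1h3c. Among the highest, Mctp1, Plxdc2, Calcoco1 and Cd96 had 24.6, 14, 12.1 and 13 CPM against 9, 5.12, 5.4 and 6.51.

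A single cell of 15193 UMIs, called hashtag 9, held 218 of the 220 Il5 UMIs, 141 of the 142 Il13 UMIs, 504 of the 528 Il2 UMIs and 20 of the 21 Il21 UMIs of the 1247 cells. It met the gate with 2 Ncr1 and 5 Klre1 UMIs, and it held 5 Gata3, 3 Il1rl1, 3 Areg, 3 Trac and 5 Trbc2 UMIs, 2 Gzma UMIs and 115 Gzmb UMIs. The 8 markers of ILC2, which make interleukins 5 and 13, summed to 179 CPM in NK cells without Ifng and 116 in those with Ifng, and this cell gave the higher values of Il5 and Il13. Car10, which ranked high against T cells, likewise had 52 of its 79 UMIs in a single cell, and the heat shock gene Hspa1a 55 of 68 in 5 cells.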
